A study of Homo sapiens with 6 samples.

Results

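The APOL and GBP genes are 2 families of interferon-inducible genes, and their RNA was followed in RL cells given LY317615. RL cells are a long-established line from a human B-cell lymphoma, with the t(14;18) translocation. LY317615 (enzastaurin) was made to inhibit the beta form of protein kinase C. The members are 10 genes: APOL1, APOL2, APOL3, APOL4 and APOL6, and GBP1 to GBP5. They were chosen with the comparison of treated and untreated cells already known, APOL1 being among the largest rises. Of the 10, 9 had a probe set (the group of array probes that reads 1 transcript) annotated to a single gene, out of 18417 genes measured in this way. GBP1 did not, since its only probe set is shared with GBP3 and the pseudogene GBP1P1. The study profiled total RNA on Affymetrix Gene 1.0 ST arrays. The untreated group has 3 arrays. The treated group has 3 arrays of cells given LY317615 for 48 h, at a dose that the labels give as 2.5 mM and that could not be checked here. The titles of the untreated samples also carry 48 h, and no vehicle is named for them. All cells come from 1 line, and the labels do not say that replicates were separate cultures, so spreads and p-values may be partly technical.

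Apolipoprotein L proteins bind lipids and membranes. APOL1 is secreted into blood, where it kills many trypanosomes by forming pores, while APOL2, APOL3, APOL4 and APOL6 stay inside the cell. Guanylate-binding proteins are large GTPases that assemble on the membranes of bacteria, parasites and their vacuoles and help to expose them to cytosolic sensors. Interferon gamma is the classic inducer of the GBP genes, IRF1 is one of the factors that drive them, and both families are used as readouts of interferon signalling.

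Promoter windows from 250 bases before to 50 bases after the gene start were at hand for 3 members, GBP1, GBP3 and GBP4, in the RefSeq table of build GRCh38.p14. APOL1, APOL2, APOL3, APOL4, APOL6, GBP2 and GBP5 had no entry. The interferon-stimulated response element (ISRE) was searched on both strands as GAAA, any 2 bases and GAAA, and each of the 3 windows held 1 match. Of all 35116 windows in the table, 3.57% held one. GBP6 and GBP7, family genes that are no members, also had a window, and each held 0 ISRE matches. The stretches are shown because they carry the motif by which interferon-activated factors are known to bind such genes. The readings of GBP3 and GBP4 were dim and overlapped between the groups, and GBP1 has no probe set of its own. IFI44, an interferon-induced gene that is no member and that rose, is shown beside them. Each stretch runs 5′ to 3′ on the strand of its gene, and capitals mark the ISRE match, which lies on the opposite strand in all 4.
GBP1, chr1:89065306-89065365, minus strand: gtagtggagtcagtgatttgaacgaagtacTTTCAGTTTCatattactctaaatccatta
GBP3, chr1:89022842-89022894, minus strand: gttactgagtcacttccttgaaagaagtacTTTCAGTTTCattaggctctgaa
GBP4, chr1:89198918-89198976, minus strand: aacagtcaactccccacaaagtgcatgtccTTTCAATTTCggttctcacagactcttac
IFI44, chr1:78649741-78649800, plus strand: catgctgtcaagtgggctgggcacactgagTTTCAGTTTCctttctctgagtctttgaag

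The matches of GBP1, GBP3 and IFI44 have the same 10 letters. GBP1 and GBP3 share a longer unbroken run of 19 bases around it, whereas the longest run that GBP4 shares with either is 6 bases. Counted from the first transcribed base as 1, the match lies from -127 to -118 in GBP1, from 3 to 12 in GBP3 and from -4 to 6 in GBP4, where it spans the start. GBP3 also held the interferon gamma activated site (GAS, searched as TTC, any 3 bases and GAA), which 7.66% of all windows hold, from -15 to -7. The composite of an ETS and an IRF site, searched as GGAA, any 2 bases and GAAA and present in 2.82% of all windows, was in 0 of the 3. A match is a string of letters and not a measured binding site, and a missing one says only that these letters are not in the window.

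The arrays fell into the labelled groups. Median probe-set intensity was 56.7 to 58.2 on the untreated arrays and 60.0 to 61.4 on the treated arrays. LY317615 replicate 3 was unlike its group, its weight in a fit of array quality being 0.376, whereas the other 5 arrays had 1.04 to 1.51. Of 8 fixed B-cell markers, 6 were measured, at the 87.5th to 98.9th percentile of untreated intensity over all genes. Their summed intensity was 10250 to 10762 on the untreated arrays and 7183 to 7873 on the treated arrays. All 7 T and NK cell markers lay at or under the 39.6th percentile and all 7 monocyte and macrophage markers at or under the 49.5th. The summed level of the T and NK cell list was 180 to 186 on the untreated and 212 to 246 on the treated arrays, and that of the monocyte list 222 to 236 and 269 to 311. The epithelial and stromal list reached the 59.4th percentile and went from 428 to 460 up to 526 to 585. That rise of the sum was not there without PECAM1: the sum was then 329 to 357 on the untreated and 314 to 359 on the treated arrays. The genes left went both ways. KRT18, the brightest gene of the list on untreated arrays, had a log2 difference of -0.48 ± 0.12 (SE). KRT8, COL1A2, COL1A1, EPCAM and DCN had differences of 0.31, 0.27, 0.19, 0.06 and -0.08. The part of these shifts in the results was not tested, and in bulk RNA a change in the number of cells of a type cannot be told apart from a change of RNA per cell.

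APOL1 was the member with the large rise, 2.92-fold. Its intensity was 33.3, 43.5 and 41.8 on the untreated arrays and 115, 129 and 102 on the treated arrays. The groups did not overlap, and the lowest treated array, LY317615 replicate 3, was still above every untreated one. On the log2 scale the mean went from 5.30 ± 0.21 to 6.84 ± 0.17 (SD, n = 3), a difference of 1.55 ± 0.13 (SE from the fit over all genes). That rise ranked 11 of 18417 genes. It was 1.63 without LY317615 replicate 3. Untreated APOL1 stood at the 34.0th percentile of intensity over all genes, so the rise started from the dimmer part of the array.

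**Figure D1:**
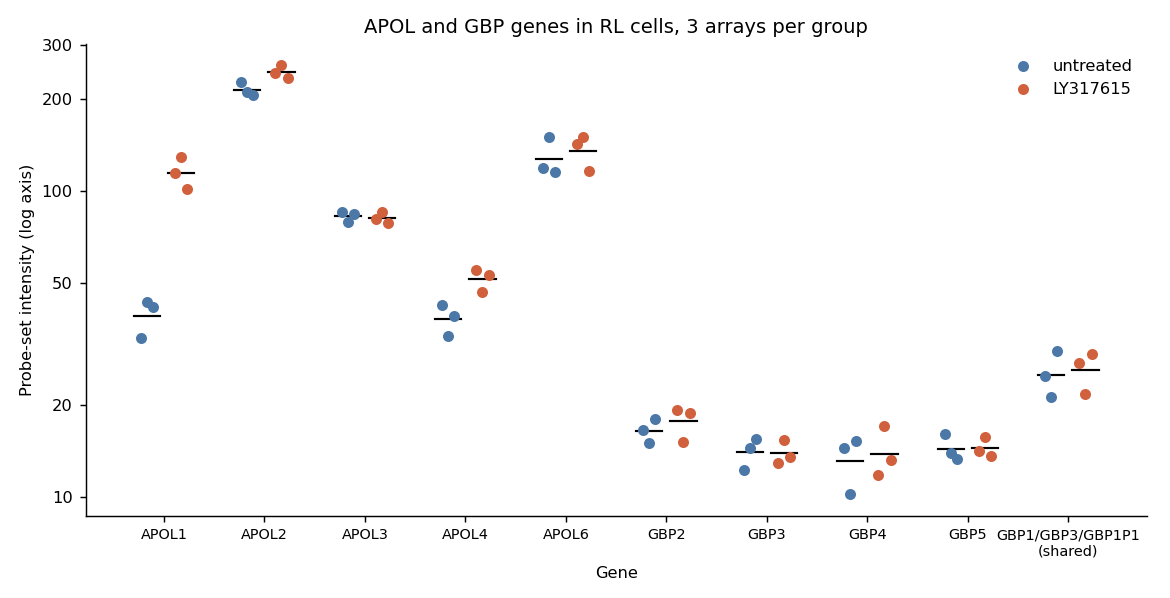
Probe-set intensity (vertical log axis) of the 9 members with a probe set of their own and of the probe set shared by GBP1, GBP3 and GBP1P1, with 1 point per array, untreated in blue and LY317615 in orange, and bars at the mean of the log2 values. The APOL1 arrays part at 43.5 and 102, while the points of the 4 GBP members with their own probe set stay between 10.2 and 19.3 in both groups.

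APOL4 and APOL2, close relatives of APOL1 in the same gene cluster, were also higher on every treated array, by much less. APOL4, an intracellular family member, had intensities of 42.5, 33.7 and 39.1 on the untreated and 55.5, 47.0 and 53.5 on the treated arrays. The log2 difference was 0.44 ± 0.11 (SE), or 1.35-fold. The gap between the groups was narrow, with untreated replicate 1 and LY317615 replicate 2 closest to each other. APOL2, which is found at intracellular membranes, read 227, 211 and 207 on the untreated and 243, 258 and 235 on the treated arrays. Its difference was 0.19 ± 0.08 (SE), or 1.14-fold between the means. The gap between the groups ran only from 227 in untreated replicate 1 to 235 in LY317615 replicate 3. After cyclic loess, a scaling that removes trends with intensity, APOL4 was at 0.30 and APOL2 at 0.32, and with the array medians set equal they were at 0.38 and 0.14.

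APOL3 and APOL6 overlapped between the groups. APOL3, an intracellular protein that dissolves bacterial membranes, read 85.3, 79.4 and 84.2 without and 80.9, 85.7 and 78.5 with the compound. Its log2 difference was -0.02 ± 0.08 (SE), with 1 treated array below, 1 inside and 1 above the untreated range. APOL6, whose overexpression is known to kill cells, read 119, 151 and 116 without and 143, 151 and 116 with the compound. Both groups spanned the same range, and the difference was 0.09 ± 0.13 (SE). Within the family the log2 differences thus ran from -0.02 to 1.55 around a median of 0.19, against a median of 0.02 over all genes.

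All 4 GBP members with their own probe set were dim and overlapped between the groups. GBP2, a prenylated GTPase, read 16.6, 15.0 and 18.0 on the untreated and 19.3, 15.2 and 18.9 on the treated arrays, a log2 difference of 0.10 ± 0.11 (SE). Replicate 2 was the lowest of its group both times. A second, dimmer probe set of GBP2 read 9.17, 7.32 and 9.27 without and 7.80, 8.90 and 8.87 with the compound, a difference of -0.0046 ± 0.12 (SE). Neither probe set of the gene parted the groups.

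GBP3, a close relative of GBP1, read 12.3, 14.5 and 15.5 on the untreated and 12.9, 15.4 and 13.6 on the treated arrays. Its log2 difference was -0.01 ± 0.11 (SE). GBP4 was the most variable member, with 14.5, 10.2 and 15.3 untreated and 11.8, 17.1 and 13.3 treated, and a difference of 0.08 ± 0.17. GBP5, a GTPase linked to inflammasome assembly, read 16.1, 14.0 and 13.3 without and 14.2, 15.7 and 13.6 with the compound, a difference of 0.01 ± 0.10. No array or group was set apart in these 3 genes.

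The probe set shared by GBP1, GBP3 and GBP1P1 cannot be given to 1 gene. It read 24.9, 21.3 and 30.2 on the untreated and 27.5, 21.8 and 29.5 on the treated arrays. The groups overlapped, with a log2 difference of 0.05 ± 0.16 (SE). Replicate 2 was the lowest in each group.

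**Figure D2:**
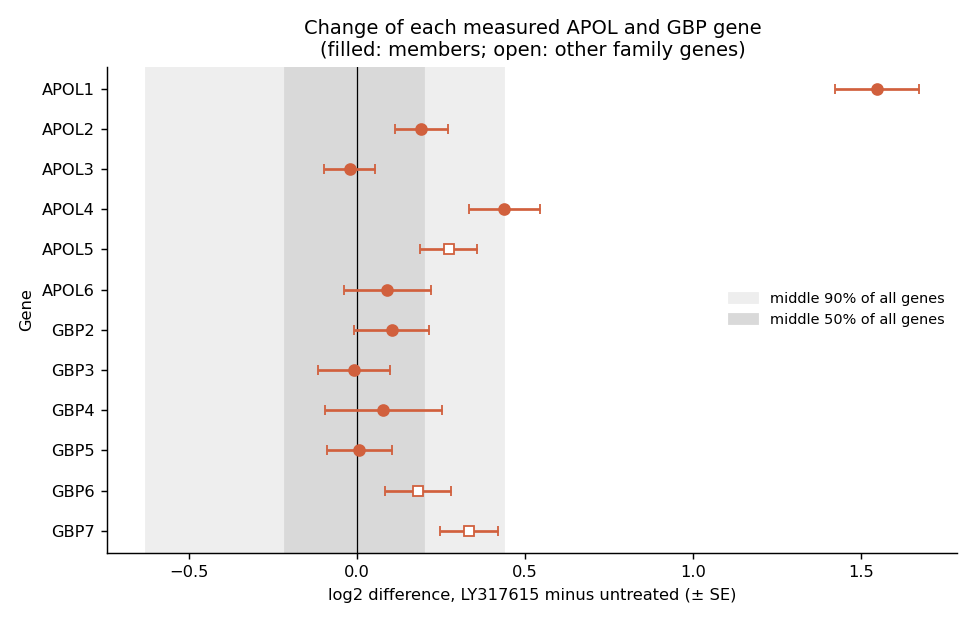
Log2 difference between LY317615 and untreated arrays (horizontal axis, with SE) for each measured APOL and GBP gene, members filled and other family genes open, over bands holding the middle 50% and 90% of all genes. APOL1 at 1.55 lies far right of the bands, APOL4 at 0.44 at their edge, and the 4 GBP members between -0.01 and 0.10.

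Of the 9 measured members, 2 (APOL1 and APOL4) were past the threshold of an adjusted p of 0.05, both higher. APOL2 passed it too under 4 of 16 alternatives, namely array weights, both forms of cyclic loess and the dimmest 30% of genes left out, which made 3 members. Over all genes 35.7% were past it, 14.2% higher and 21.4% lower. The groups did not overlap in 3 members, all higher; over all genes that held for 49.8%, and 22.0% were higher. Since the members were chosen on this contrast, these counts describe them and test nothing. With the array medians set equal, 1810 genes were higher and 4526 lower, against 2622 and 3946 as reported. By untreated intensity the GBP members ranged from the 9.44th to the 13.7th percentile of all genes and the APOL members from the 33.3rd to the 67.0th. Whether the GBP probe sets were above background was not tested, as there were no detection calls to use. The GBP median of 0.04 had no steady sign: it was -0.04 with the array medians set equal over all probe sets and -0.06 without LY317615 replicate 2. Of the 778 genes as dim as the GBP members, 7.46% were called higher and 1.16% lower, with a median difference of 0.08 and a median SE of 0.11.

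The 3 family genes outside the members were dim too. GBP7 read 18.3, 17.2 and 18.9 on the untreated and 22.1, 25.1 and 21.4 on the treated arrays. It rose by 0.33 ± 0.09 on the log2 scale (SE, limma with Benjamini-Hochberg over all genes, adjusted p = 0.0164), a call lost after cyclic loess, with medians set equal over all probe sets and without untreated replicate 2. APOL5 read 11.0, 12.8 and 12.3 without and 14.5, 13.8 and 15.2 with the compound. It rose by 0.27 ± 0.08 (limma, adjusted p = 0.033), a call lost after cyclic loess, with the array medians set equal, with a trended variance prior and without untreated replicate 1 or 3 or LY317615 replicate 1 or 3. GBP6 read 11.7, 9.13 and 10.2 against 12.1, 11.4 and 11.5, groups that overlapped, with a difference of 0.18 ± 0.10 (limma, adjusted p = 0.181). So 2 of the 3 were called, and 1 or 0 under these settings.

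Of the 5 genes that followed APOL1 most closely over the 6 arrays, 3 (IFI44, IFIT1 and DDX60) are known as interferon-induced. Likeness was measured as the root mean square distance between log2 values after each gene was centred on its own untreated mean. The 5 nearest genes outside the members were IFI44 (distance 0.13), the ganglioside enzyme gene ST3GAL5 (0.13), IFIT1 (0.13), which encodes a sensor of viral RNA ends, the helicase gene DDX60 (0.14) and PRKAG1 (0.14), a subunit of the AMP-activated kinase. They rose by 1.68 ± 0.12, 1.43 ± 0.08, 1.48 ± 0.16, 1.37 ± 0.11 and 1.43 ± 0.09 on the log2 scale (SE). All 5 were nearest to a gene chosen for its rise, so their direction follows from the choice. IFI44 went from 8.92 ± 0.22 to 10.60 ± 0.10 (SD, n = 3), with all 3 treated arrays above all untreated ones. It carries the same ISRE letters as GBP3, which stayed at a difference of -0.01. GBP3 was dim, at the 10.5th percentile, and whether it was above background was not tested. The match of GBP3 lies after the start. That of IFI44 lies before it, from -18 to -9 or from -60 to -51 by the start used. What the letters do in either gene was not tested. The IFIT1 and DDX60 windows held 2 ISRE matches each, and those of ST3GAL5 and PRKAG1 held 0.

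The 5 genes nearest to GBP2, the GBP member with the largest difference, were LINGO2 (distance 0.03), FBP2 (0.03), OR6S1 (0.04), GPR148 (0.04) and FBXO24 (0.04). Their differences ran from 0.07 to 0.13, and the groups overlapped in all 5. Their untreated intensities ranged from the 6.20th to the 37.5th percentile.

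Interferon markers outside the families were set beside the members. Of 27 genes used as markers of type I interferon, 22 rose and 1 (ISG20) fell, with a median of 0.92 against 0.02 over all genes. The ISG20 call was lost after cyclic loess and without untreated replicate 2. IFI44L, an interferon-induced gene beside IFI44, rose by 1.79 ± 0.09 (SE), BST2, the tether of budding viruses, by 1.28 ± 0.07 and the interferon-induced gene IFI6 by 1.94 ± 0.12 (limma, adjusted p of 1.32e-05, 1.73e-05 and 2.28e-05). APOL1 at 1.55 lay within the range of these genes, and the other 8 measured members lay below 0.5.

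Markers of the interferon gamma response went both ways. Of 19 measured genes, 5 rose and 4 fell, and the median was 0.06. So 47.4% were called, against 35.7% of all genes. CXCL10 and CXCL11, chemokines that draw activated T cells, changed by -1.18 ± 0.08 and -0.71 ± 0.09 (SE; limma, adjusted p = 3.45e-05 and 0.000566). CXCL10 had log2 values of 5.78, 5.90 and 5.68 untreated and 4.65, 4.58 and 4.58 treated, so it fell on every treated array. WARS1, the tryptophan tRNA ligase gene, changed by -0.82 ± 0.08, whereas the immunoproteasome gene PSMB9 rose by 0.61 ± 0.08 (limma, adjusted p = 0.000167 and 0.000472). After cyclic loess 8 were higher and 3 lower, and with equal medians 4 and 5.

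**Figure D3:**
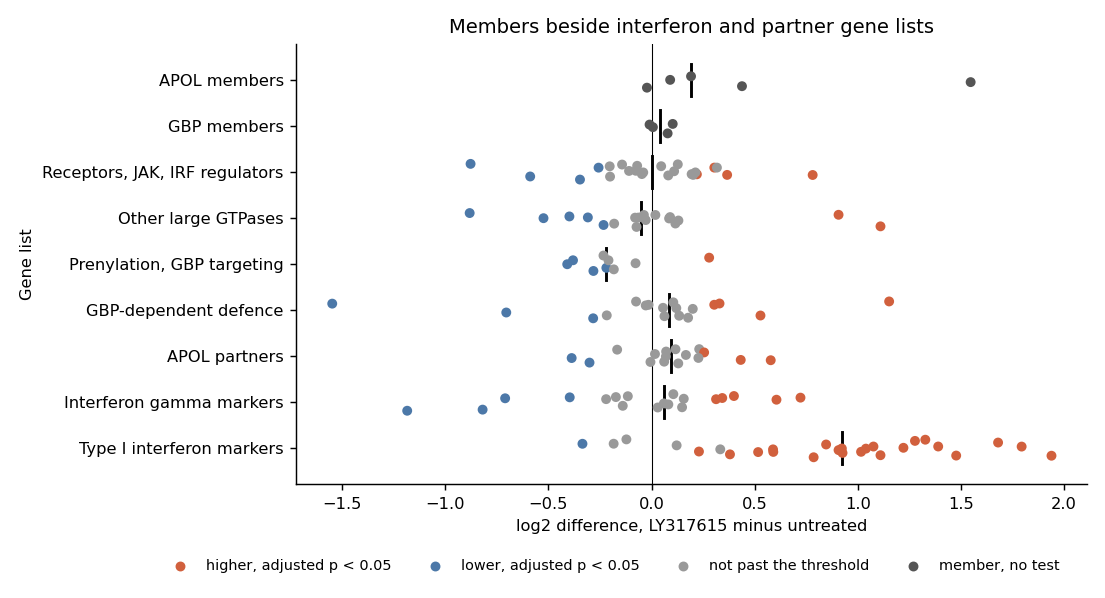
Log2 difference between LY317615 and untreated arrays (horizontal axis), 1 point per gene, for the members and 7 gene lists (rows), with vertical bars at the medians and colours for genes past an adjusted p of 0.05; members carry no test. The type I interferon list has a median of 0.92, the interferon gamma list 0.06 and the GBP members 0.04.

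Receptors, kinases and factors of interferon signalling went both ways, in shares that moved with the scaling. Of 24 measured genes, 4 rose and 4 fell (median 0.003), so 33.3% were called, near the 35.7% of all genes. After cyclic loess 6 were higher and 3 lower, and with equal medians over all probe sets 2 and 5. IRF8, an IRF factor of B cells, changed by -0.88 ± 0.08 (SE) and the phosphatase gene PTPN2, which restrains JAK signalling, by -0.59 ± 0.10 (limma, adjusted p = 0.000103 and 0.00279). USP18, the feedback inhibitor of the type I receptor, rose by 0.78 ± 0.14 and the kinase gene TYK2 by 0.37 ± 0.09 (limma, adjusted p = 0.0033 and 0.0137). The TYK2 call was lost without untreated replicate 3, and the count of 8 became 5 without untreated replicate 2 and 4 without untreated replicate 3. IRF1, named after its value was seen because it is the factor known to drive GBP genes, had log2 values of 7.93, 8.05 and 8.06 untreated and 8.14, 8.08 and 7.71 treated, a difference of -0.04 ± 0.12 (limma, adjusted p = 0.809).

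Among the other large GTPases of the GBP superfamily, the interferon-induced MX genes rose. Of 18 measured genes, 2 rose and 5 fell (median -0.05), and 3 and 3 after cyclic loess. As reported 38.9% were called, near the 35.7% of all genes. The risers were MX1 and MX2, antiviral dynamin-like GTPases, by 1.11 ± 0.12 and 0.91 ± 0.11 (SE; limma, adjusted p = 0.000208 and 0.000485). Both also stand in the type I interferon list above, where they are already counted as risers. MX1 went from 9.79 ± 0.23 to 10.90 ± 0.08 on the log2 scale (SD, n = 3) with no overlap. The endosome-recycling gene EHD1 changed by -0.88 ± 0.07 and MFN2, which fuses mitochondria, by -0.52 ± 0.08 (limma, adjusted p = 8.36e-05 and 0.00183).

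Enzymes that prepare GBPs for membranes were lower in part as reported, a lean that was lost after cyclic loess. GBP1, GBP2 and GBP5 are known to need a prenyl anchor. Of 9 measured genes, 4 fell and 1 rose (median -0.22), so 55.6% were called, against 35.7% of all genes. RCE1, the protease that trims prenylated proteins, changed by -0.41 ± 0.08 (SE) and PDE6D, a carrier of prenylated proteins, by -0.38 ± 0.08 (limma, adjusted p = 0.0052 and 0.00756; the PDE6D call was lost after cyclic loess). FNTA, the subunit shared by both prenyl transferases, changed by -0.28 ± 0.09, and the methyltransferase gene ICMT rose by 0.28 ± 0.09 (limma, adjusted p = 0.0319 and 0.0469). The calls of FNTA and ICMT held under 10 and 9 of 16 alternatives. The count of 5 became 2 without untreated replicate 2 or 3, without LY317615 replicate 1 or 2, and after cyclic loess. After cyclic loess, 1 was higher and 1 lower.

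Genes that act with GBPs in defence within the cell split as well. Of 18 measured genes, 4 rose and 3 fell (median 0.08). The share called, 38.9%, was near the 35.7% of all genes. RNF213, a giant ubiquitin ligase that marks bacteria, rose from 8.30 ± 0.08 to 9.45 ± 0.15 (SD, n = 3), by 1.15 ± 0.10 (SE; limma, adjusted p = 7.86e-05). AIM2, a sensor of cytosolic DNA, had log2 values of 7.34, 7.46 and 7.46 untreated and 6.04, 6.05 and 5.53 treated, a change of -1.55 ± 0.14 (limma, adjusted p = 0.000101). The lowest value was that of LY317615 replicate 3. The autophagy receptor gene SQSTM1 changed by -0.70 ± 0.10, and the pore-forming gene GSDMD rose by 0.53 ± 0.08 (limma, adjusted p = 0.000854 and 0.00145). The count of 7 became 4 without untreated replicate 1 or 2, and 2 higher and 3 lower with equal medians over all probe sets.

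Partners of APOL proteins were called about as often as genes in general, 31.2% against 35.7%. Of 16 measured genes, 3 rose and 2 fell (median 0.09). After cyclic loess the 5 calls were 5 higher and 0 lower, so the split rests on the scaling. APOA1, the main protein of the particles that carry secreted APOL1, rose by 0.43 ± 0.09 (SE; limma, adjusted p = 0.00494). SNAP29 and VAPA, of vesicle fusion and membrane contact sites, changed by -0.30 ± 0.08 and -0.39 ± 0.11 (limma, adjusted p = 0.0159 and 0.0208). HP, the haptoglobin gene, rose by 0.58 ± 0.16 (limma, adjusted p = 0.0234) with overlapping groups among the dimmest genes, at percentile 0.244 of untreated intensity. The SNAP29 call was lost without untreated replicate 3 and that of VAPA without untreated replicate 2 or 3 or LY317615 replicate 2 or 3, both also after cyclic loess. The HP call was lost without untreated replicate 1 or 2, without LY317615 replicate 2 or 3 and with array weights. The count of 5 became 2 without untreated replicate 2 or 3 and 3 without LY317615 replicate 2 or 3.

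Genes next to the clusters moved in their own ways. The APOL genes sit together on chromosome 22 and the GBP genes on chromosome 1. Of the 24 nearest measured protein-coding genes, 6 on each side of each cluster, 3 rose and 9 fell (median -0.07). So 12 of the 24 were called, a larger share than the 35.7% of all genes, of which 14.2% were higher and 21.4% lower. The neighbour counts after cyclic loess were 4 higher and 6 lower. Beside the APOL cluster, the replicative helicase gene MCM5 changed by -1.04 ± 0.11 (SE), the haem oxygenase gene HMOX1 by -0.52 ± 0.08 (limma, adjusted p = 0.000205 and 0.00127). Beside the GBP cluster, ZNF326, SELENOF, LRRC8B and GTF2B changed by -0.91 ± 0.09, -0.69 ± 0.07, -0.51 ± 0.08 and -0.42 ± 0.07 (limma, adjusted p of 0.0028 or less). MYH9, the gene next to APOL1 and named after its value was seen, rose by 0.31 ± 0.07 (limma, adjusted p = 0.00942). RBFOX2, which lies between APOL5 and APOL3 and was also named afterwards, changed by -0.24 ± 0.07 (limma, adjusted p = 0.0283), a call that held with only 1 of the 6 arrays left out, LY317615 replicate 2, and was lost after cyclic loess.

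**Figure D4:**
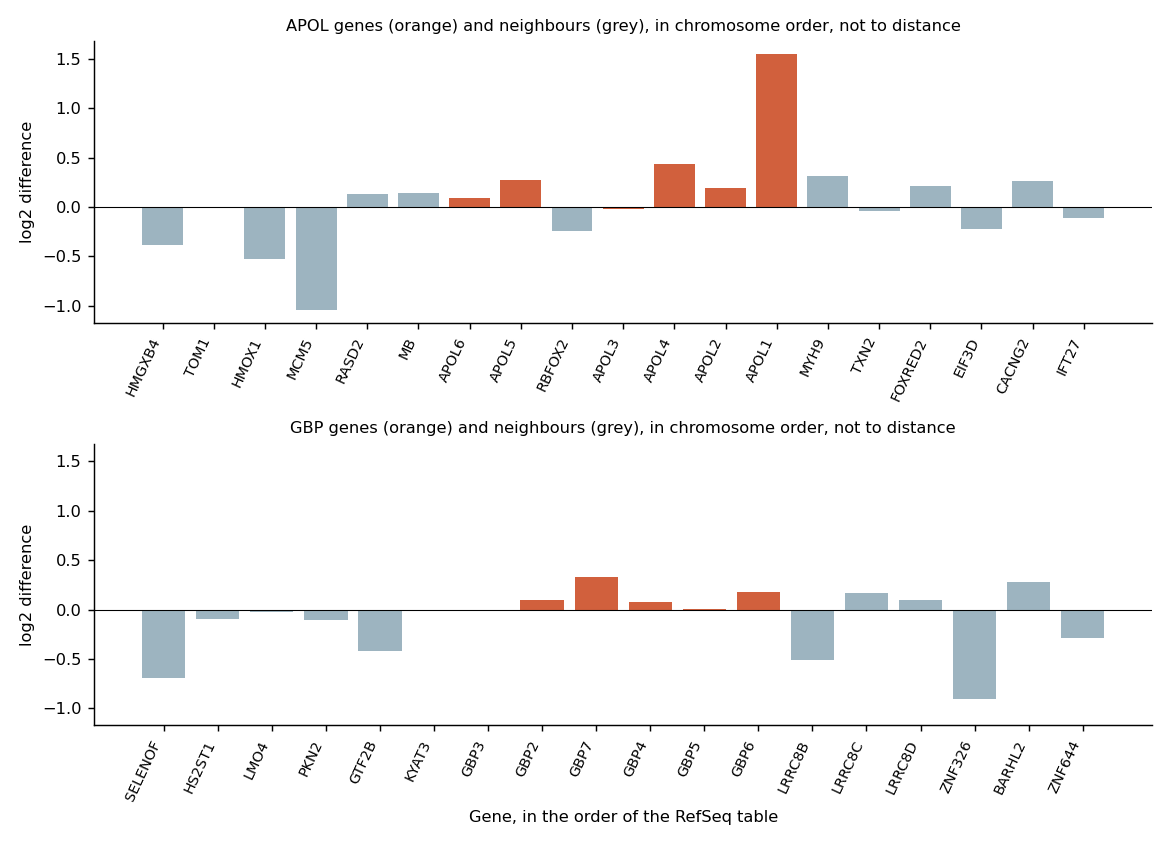
Log2 difference between LY317615 and untreated arrays (bars, vertical axis) for APOL and GBP genes in orange and their neighbours in grey, in chromosome order and not to distance. APOL1 at 1.55 stands between APOL2 at 0.19 and MYH9 at 0.31.

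Over the settings tried, APOL1 kept the largest value of the members, from 1.43 to 1.63. APOL4 ranged from 0.30 to 0.51, APOL2 from 0.11 to 0.32 and APOL6 from 0.01 to 0.21. APOL3 and all GBP members other than GBP2 took values on both sides of 0. GBP4 had the widest range of the GBP members, from -0.10 without untreated replicate 2 to 0.19 without LY317615 replicate 1.

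**Figure D5:**
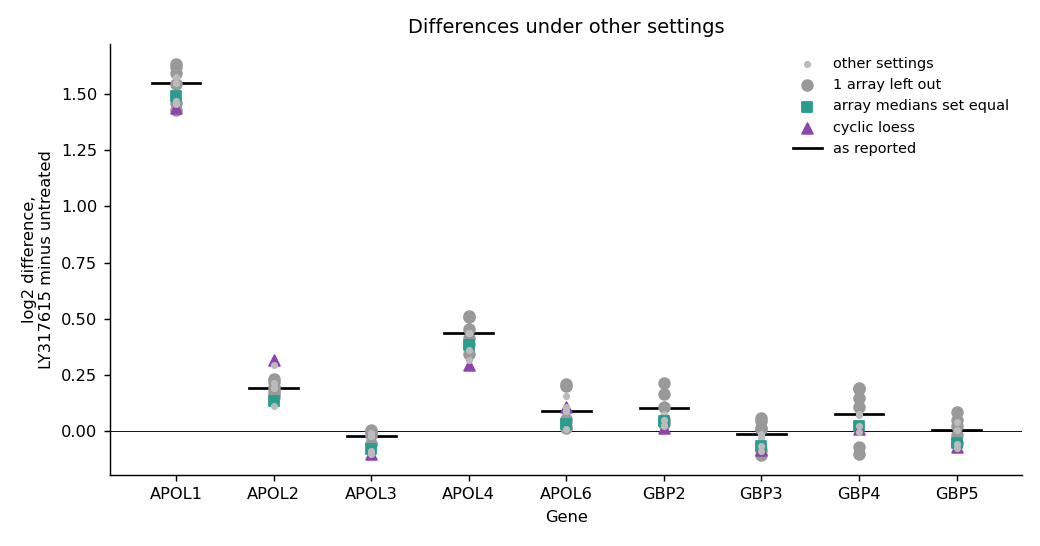
Log2 difference of each measured member (vertical axis) as reported (black bars) and under the other settings (symbols). APOL1 stays between 1.43 and 1.63, APOL4 between 0.30 and 0.51, and GBP3, GBP4 and GBP5 cross 0.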

How the data were processed

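Total RNA of 6 RL cell samples was measured on Affymetrix Gene 1.0 ST arrays. The deposited values are linear intensity values per probe set and array, made by the authors with RMA, Affymetrix Expression Console and GCOS 1.4, per the submitters' processing notes; for their roles, their order and the genome build, "not given in the sources used here" applies. The values are linear whereas RMA commonly gives log2 values, and a step back to the linear scale is assumed.

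Log2 was taken with no constant and no further scaling. Of 33297 probe sets, 19460 had 1 gene symbol, 1754 several and 12083 none. The brightest probe set stood for each of 18417 genes, with no filter on intensity. Treated and untreated arrays were compared with limma 3.58.1, run in R 4.3.3 (two-sided, eBayes with no trend, Benjamini-Hochberg over all genes, threshold 0.05). The code was tested on simulated data. Precision is limited by 3 arrays per group.

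The members and lists were chosen with earlier results of these data known, so members carry no p-value. Named genes follow a rule: all members and other family genes, up to 4 called genes per list by smallest adjusted p, the 5 genes nearest to APOL1 and to GBP2, and up to 6 called neighbours. ISG20, IRF1, MYH9 and RBFOX2 fall outside it. Protein sequences were not used here. The same-numbered replicates were checked for pairing: their deviations from the group means correlated at -0.02, 0.09 and 0.07 over genes, so no pairing was assumed. Alternatives were a replicate block, leaving out each array, a trended or robust variance prior, array weights, the mean over all probe sets of a gene, a filter on the dimmest 30% of genes, equal array medians and cyclic loess. The last pair was computed first over all probe sets and then over the gene rows; the gene rows were taken after both outcomes had been seen, and the closing section gives both.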

Additional observations from a re-analysis of the deposited data

How the results depend on the processing

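Of 203 values set against the reported ones for the gene counts, family medians and motif count, 175 stayed within 1.5 times the reported count or 1 SD. A change of sign was not scored for these values, and the GBP median took both signs. Equal medians and cyclic loess over all probe sets, in place of the gene rows, are alternatives listed after the data were seen. Equal medians over all probe sets moved the APOL median as well, which its planned form did not. Cyclic loess moved the same values in both forms. The count of other family genes called (2) was 1 with a trended variance prior, 1 with equal medians, 0 after cyclic loess, 0 with each scaling over all probe sets, and 1 to 2 with 1 array left out. The prenylation count (5) was 2 after cyclic loess in both forms and 2 to 4 with 1 array left out. With 1 array left out, the counts were 4 to 8 for interferon regulators (8 reported), 4 to 7 for GBP-dependent defence (7) and 2 to 4 for APOL partners (5). The APOL median (0.19) was 0.30 after cyclic loess in both forms and 0.11 with equal medians over all probe sets. In the window of 250 bases before the start only, 1 member held the ISRE. Leaving out the dimmest 30% of genes removed the GBP members and the other family genes, so it gave no value for them. With the replicate number as a block, 6548 genes were called against 6568, 2 members were called in both fits, and no count named here moved by over 1.5 times. After cyclic loess 2588 genes were higher and 2979 lower; over all probe sets, equal medians gave 1523 and 4861 and cyclic loess 2374 and 3287. The cause of these differences was not tested.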

Other observations

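An ISRE match alone did not go with a clear shift over all genes. This count was chosen after the data were seen. Of 587 measured genes with a match in a promoter window, 15.3% were called higher and 23.2% lower, against 13.3% and 23.1% of 13652 genes without one. Of 51 genes with at least 2 matches in 1 window, 41.2% were called higher and 11.8% lower. They include DDX60 and genes of the type I interferon list, among them IFI6, IFI44L and IFIT1. So this share partly counts risers named above again. Within the type I interferon list, 14 of 16 genes with a match rose, and so did 5 of 6 genes without one. Among those without one, OAS1, RIGI and IFI35 held the similar ETS/IRF composite instead. So the lack of a match is not the lack of any such site. The rest of the 27 listed genes had no window.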
